A study of Mus musculus with 8 samples.

Results

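The genes described here encode enzymes and cofactors that cut, trim, tail and degrade RNA in mitochondria, and they were followed in hearts of mice lacking SSBP1, the protein that coats single-stranded mitochondrial DNA. The list was taken by name and holds 10 nuclear genes of the 55383 rows in the deposited table: Supv3l1, Pnpt1, Grsf1, Rexo2, Mtpap, Elac2, Trmt10c, Hsd17b10, Ptcd1 and Ptcd2. All 10 were measured and all 10 passed the filter on low values. The study sequenced TruSeq libraries of heart RNA from 5-week-old mice on a C57BL/6N background. Knockout hearts, labelled Ssbp1-/-, carried loxP-flanked Ssbp1 alleles, with exon 3 excised by Cre recombinase under the Ckmm promoter, which is active in heart and skeletal muscle, so that other cells of the heart kept the gene. Control hearts were labelled Ssbp1+/+, and the study described its controls as loxP-flanked mice without Cre. The comparison used 2 knockout hearts and 2 control hearts, each from a separate mouse. A further 2 mice, numbered 585 and 586, were left unassigned because the title and the genotype field of their labels contradict each other, and they entered no main fit. Their values are given singly, and estimates with both mice placed by title or by genotype field are given only as alternatives. In these mice mt-Cytb, the mitochondrial mRNA with the lowest fold change, had a normalized count of 9788 in mouse 585 and 225993 in mouse 586.

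Mitochondrial DNA of mammals is transcribed from both strands into long precursors, in which tRNAs lie between most of the mRNAs and rRNAs. RNase P cuts at the 5′ end of each tRNA and RNase Z, encoded by Elac2, cuts at its 3′ end, so the mRNAs are released as the tRNAs are excised. Released mRNAs receive poly(A) tails from the polymerase MTPAP, and surplus RNA, much of it antisense, is unwound by the helicase SUPV3L1 and degraded by the exoribonuclease PNPT1. The heart depends strongly on this pathway, and inherited defects in ELAC2 cause cardiomyopathy in humans.

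The places where these enzymes act can be read from the mitochondrial genome. Of the 11 mRNA features in the table, 5 have a tRNA on the same strand within 5 bases of both ends, 3 have none at the 5′ end and 4 have none at the 3′ end, mt-Co1 being without one at either end. The 2 junctions below are shown because each mRNA begins at the base that follows the tRNA, so that a single cut by the Elac2 product frees its 5′ end. The first lies on the minus strand at chrM:14051-14139 and the second on the plus strand at chrM:2676-2770 (GRCm38, sequences from GENCODE). The tRNA is in lower case and the first 20 bases of the mRNA are in capitals.
mt-Te to mt-Nd6: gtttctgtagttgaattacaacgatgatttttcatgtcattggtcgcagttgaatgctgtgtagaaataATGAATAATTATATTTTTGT
mt-Tl1 to mt-Nd1: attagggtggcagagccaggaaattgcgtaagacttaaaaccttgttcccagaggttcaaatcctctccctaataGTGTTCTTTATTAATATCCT
The tRNA for glutamate, mt-Te, is 69 bases long and precedes mt-Nd6, which encodes a complex I subunit from the strand opposite to all other mRNAs. The leucine tRNA mt-Tl1 is 75 bases long and precedes mt-Nd1, another complex I subunit. All 22 mitochondrial tRNA rows were listed at 0 in every library, so neither the tRNAs nor their unprocessed precursors could be followed in these data.

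The deposited values are normalized counts, estimated read counts divided by a size factor for each library. The libraries held 25558246 to 25682093 reads in knockout hearts and 19716305 to 24067849 reads in control hearts, of which 10734547 to 11259234 and 6568812 to 8981637 came from nuclear genes, so control libraries were shallower for the genes described here. Mitochondrial RNA made up 56.2% to 58.0% of the reads in knockout hearts and 62.7% to 66.7% in control hearts. Ssbp1 itself had 170 and 163 normalized counts in knockout hearts, against 177 and 216 in control hearts, and the log2 fold change of -0.23 did not pass the test (limma, adjusted p = 0.890). Reads from the exons outside the deleted one are counted too, so the total is a weak check of the labels. Summed cardiomyocyte markers overlapped between the groups, at 1351230 to 1455770 normalized counts in knockout hearts and 1409660 to 1438630 in control hearts, whereas the 6 fibroblast markers summed to 10883 to 13243 in knockout hearts, below the 13829 to 14832 of control hearts. Of these 6, 0 passed in limma, and Tcf21 had a positive log2 fold change (0.26). The skeletal muscle markers also summed lower without overlap, to 1668 to 2684 in knockout hearts and 2819 to 4261 in control hearts. Of these only Acta1 passed the filter on low values and was tested (log2 fold change -0.71, limma, adjusted p = 0.798). The sum is therefore no measure of skeletal muscle cells. Sums of endothelial, smooth muscle and pericyte, macrophage, erythroid and adipocyte markers overlapped between the groups. The erythroid markers summed to 41866 in knockout replicate 2, against 14926 in knockout replicate 1 and 14398 to 18944 in control hearts. In RNA from whole hearts, fewer cells of a type and less RNA per cell cannot be told apart.

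None of the 10 genes passed the threshold of an adjusted p under 0.05 in limma, where 0.117% of all 14522 genes tested passed in either direction and 0.0757% passed as higher in knockout hearts. edgeR and DESeq2 on the reads recovered from the table also called 0 of the 10. Over genes, edgeR called 0.131% of all 14522, and DESeq2 called 0.494% of the 12551 to which it gave an adjusted p. At an unadjusted p under 0.05, 1 of the 10 (Elac2) was higher in knockout hearts, beside 3.08% of all genes. In 4 genes (Supv3l1, Rexo2, Elac2 and Hsd17b10) both knockout values lay above both control values, and in no gene below them. Over all genes, 35.6% did not overlap, 18.1% with knockout higher and 17.5% with knockout lower. With upper-quartile scaling the 4 genes without overlap were 3 higher and 1 lower. The median log2 fold change of the 10 genes was 0.087, with 6 positive and 4 negative values, against a median of 0.0024 over all genes tested. That median shrank to 0.017 without knockout replicate 2 and to 0.052 without knockout replicate 1.

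**Figure D1:**
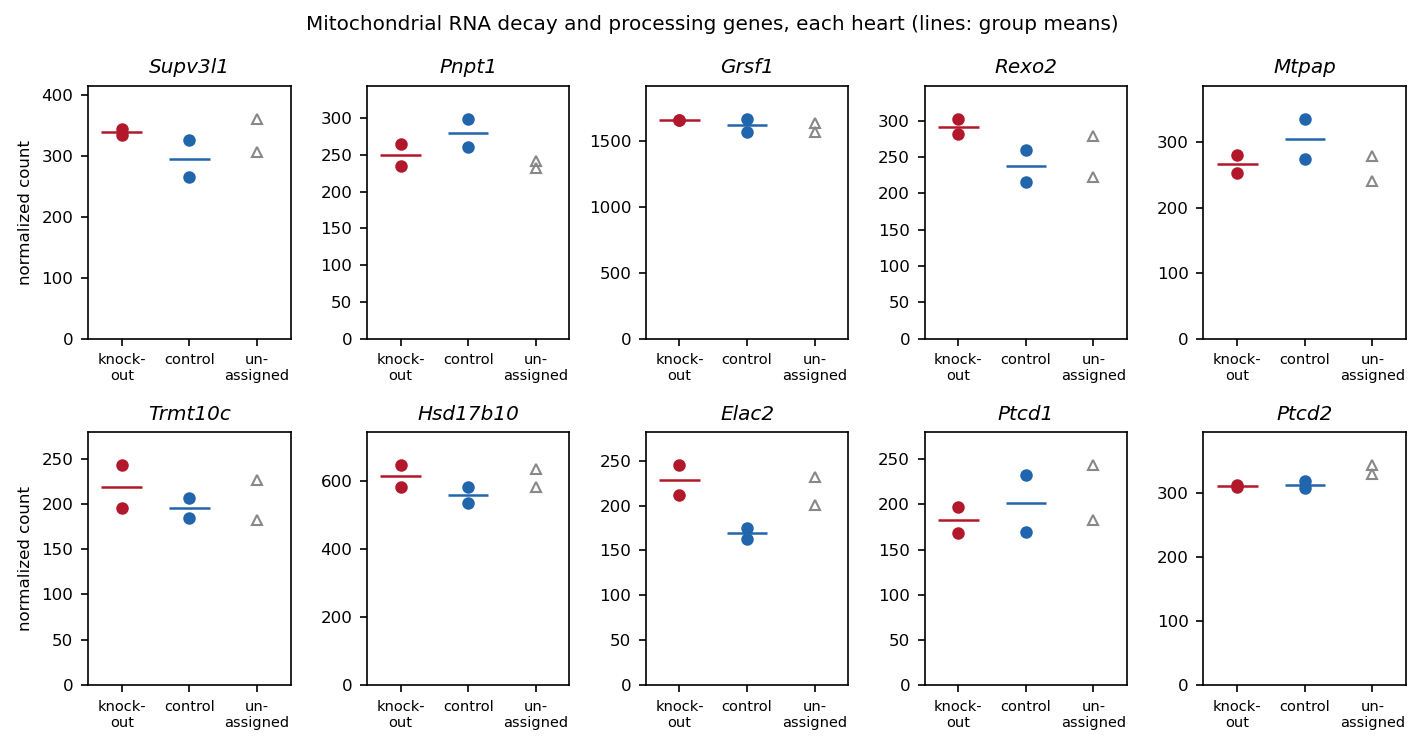
Normalized counts (vertical axes, each starting at 0) of the 10 genes in each knockout heart, control heart and unassigned mouse, with a line at the mean of each group of 2. The knockout points of Elac2 (212 and 245) stand clear of its control points (163 and 175), and the points of Ptcd2 lie between 308 and 319 in both groups.

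Levels between genes were compared as normalized counts per kilobase of exon. The length counted every base in an exon of any annotated transcript, from 1 transcript for Ptcd2 and Trmt10c to 10 for Rexo2. The lengths of the transcripts present in heart were not measured, so the order below holds for this length only. Grsf1 was the most abundant, at 546 ± 1.55 in knockout hearts and 533 ± 22.8 in control hearts (SD, n = 2 each). Hsd17b10 came next, at 472 ± 34.2 in knockout hearts and 429 ± 26.1 in control hearts. Ptcd2 had 183 ± 0.967 in knockout hearts and 184 ± 4.74 in control hearts. Over the 4 libraries the ranges of these genes did not overlap one another, nor did that of Ptcd2 with that of Supv3l1, the next in order, with 114 ± 2.35 per kilobase in knockout hearts and 99.5 ± 14.3 in control hearts. The range of Supv3l1 also lay above that of its partner Pnpt1 (71.1 ± 6.11 in knockout and 79.6 ± 7.67 in control hearts). The remaining genes formed a closely spaced lower group, ordered by control mean as Pnpt1, Rexo2, Trmt10c, Ptcd1, Mtpap and Elac2, in which the ranges of neighbours overlapped. Elac2 was lowest in control hearts, at 48.6 ± 2.42 per kilobase, and had 65.6 ± 6.66 in knockout hearts, above the 43.0 ± 3.09 of Mtpap there.

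**Figure D2:**
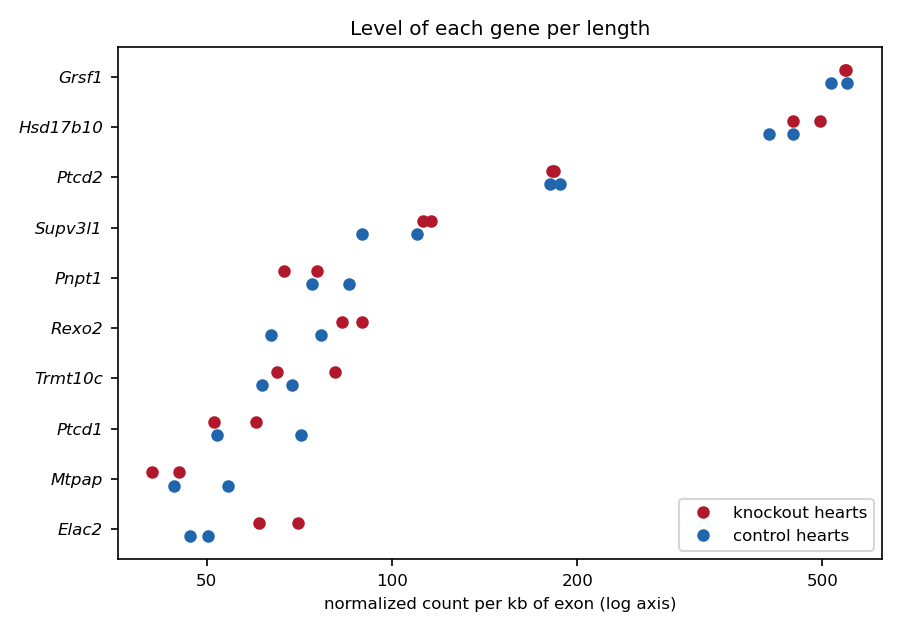
Normalized count per kilobase of exon (horizontal log axis) of each gene in the 2 knockout hearts (upper points) and the 2 control hearts (lower points), ordered by control mean. Grsf1, Hsd17b10, Ptcd2 and Supv3l1 occupy separate ranges, from 517 to 549 for Grsf1 down to 89.4 to 116 for Supv3l1, and the genes below them run together.

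The degradosome pairs a helicase with an exoribonuclease. Supv3l1, the ATP-dependent helicase (chromosome 10, 62429209 to 62449738, minus strand, GRCm38), had 334 and 343 normalized counts in knockout hearts, against 325 and 265 in control hearts. Both knockout values were above both control values, but the higher control heart was nearer to the knockout hearts than to the other control heart.
Its log2 fold change was 0.20 ± 0.15 (SE) and did not pass the test (limma, adjusted p = 0.890), with a 95% interval of 0.900 to 1.47 for the fold. The estimate dropped to 0.06 when control replicate 2 was left out and reached 0.35 when control replicate 1 was. Unassigned mouse 585 had 306 and mouse 586 had 361.

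Pnpt1 encodes the exoribonuclease that digests RNA from the 3′ end (chromosome 11, 29130744 to 29161828, plus strand). It had 265 and 235 normalized counts in knockout hearts, against 261 and 299 in control hearts. The groups overlapped, since knockout replicate 1 lay between the control hearts. The log2 fold change of -0.16 ± 0.15 did not pass the test (limma, adjusted p = 0.909), and its interval allowed a fold of 0.699 to 1.14. Leaving out 1 library at a time gave -0.26 to -0.06, the ends being without control replicates 1 and 2. In the unassigned mice the values were 232 and 241 (mice 585 and 586).

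Grsf1 encodes an RNA-binding protein of mitochondrial RNA granules that in human cells melts G-rich structures and so helps the degradosome to remove light-strand RNA (chromosome 5, 88659448 to 88676171, minus strand). It had 1655 and 1662 normalized counts in knockout hearts, against 1569 and 1666 in control hearts. The knockout values lay inside the control range. With a log2 fold change of 0.04 ± 0.09 it had the smallest standard error of the 10 genes, and the interval for the fold was 0.885 to 1.19 (limma, adjusted p = 0.968). Its read counts, from 1237 to 2172, gave a counting error of at most 2.84% per library.

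Rexo2, the oligoribonuclease that clears the very short RNAs left by larger nucleases (chromosome 9, 48468512 to 48480623, minus strand), had 281 and 302 normalized counts in knockout hearts, against 215 and 260 in control hearts. The groups did not overlap, and the gap between the closest hearts was smaller than the difference between the control hearts. The log2 fold change of 0.30 ± 0.15 did not pass the test (limma, adjusted p = 0.815), and the interval for the fold was 0.955 to 1.59. It was 0.16 when control replicate 1 was left out, 0.44 when control replicate 2 was, and 0.09 with the unassigned mice placed by title. Mouse 585 had 278 and mouse 586 had 222, both within the range of the compared hearts.

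Mtpap, which encodes the polymerase that adds poly(A) tails to mitochondrial mRNAs and thereby completes some stop codons, had 253 and 280 normalized counts in knockout hearts, against 275 and 335 in control hearts. Knockout replicate 2 exceeded control replicate 1, so the groups overlapped. Its log2 fold change of -0.19 ± 0.15 did not pass the test (limma, adjusted p = 0.900; fold interval 0.677 to 1.14), and leaving out control replicate 2 or 1 gave -0.05 or -0.33.

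**Figure D3:**
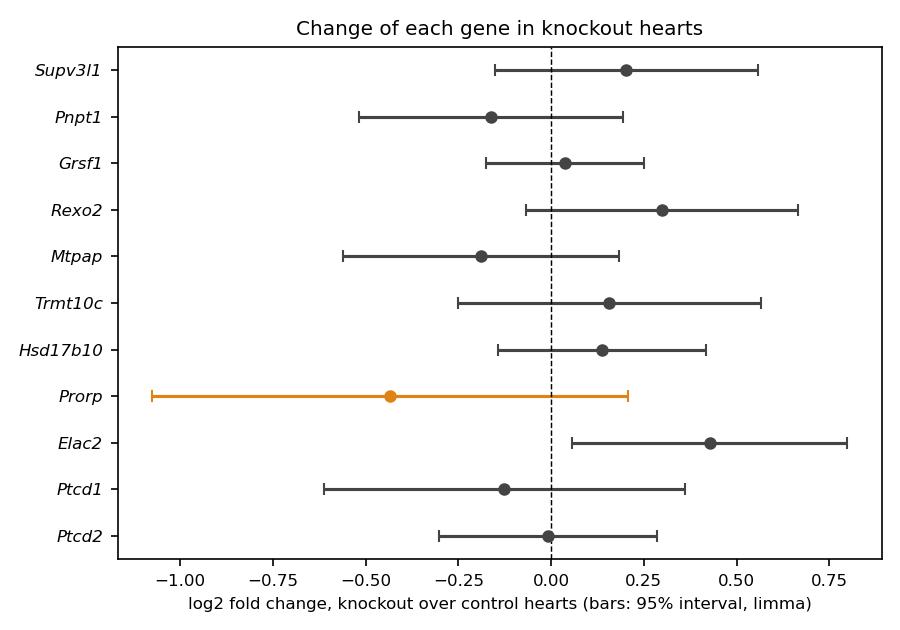
Log2 fold change of knockout over control hearts (horizontal axis) with its 95% interval from limma, for the 10 genes (grey) and for Prorp, the nuclease subunit of RNase P (orange). The intervals of all genes but Elac2 span 0, and that of Elac2 runs from 0.06 to 0.80 before any adjustment over genes.

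Mitochondrial RNase P is made of 3 proteins and has no RNA subunit. Trmt10c encodes the methyltransferase subunit, which holds the tRNA precursor and methylates several tRNAs (chromosome 16, 56032609 to 56037819, minus strand). It had 195 and 243 normalized counts in knockout hearts, against 206 and 185 in control hearts, and the control hearts framed knockout replicate 1. The estimate was 0.16 ± 0.17 on the log2 scale (limma, adjusted p = 0.926; fold interval 0.840 to 1.48). Leaving out knockout replicate 2 gave 0.0010 and leaving out knockout replicate 1 gave 0.31. A small nucleolar RNA gene, Gm22422, lies on the same strand within it and averaged 80.5 normalized counts.
Hsd17b10 encodes the dehydrogenase that supports TRMT10C in the complex and also works in isoleucine breakdown (chromosome X, 152001845 to 152004442, plus strand). Its normalized counts were 644 and 581.4 in knockout hearts, against 533 and 580.6 in control hearts. The groups were separated by less than 1 normalized count, and the log2 fold change of 0.14 ± 0.12 did not pass the test (limma, adjusted p = 0.903; fold interval 0.906 to 1.34). It was 0.06 without knockout replicate 1 and 0.21 without knockout replicate 2.
Prorp encodes the subunit that makes the cut. With 67.5 and 62.7 normalized counts in knockout hearts, against 71.3 and 109 in control hearts, it did not overlap, and control replicate 2 stood well above the other hearts. Its log2 fold change of -0.43 ± 0.26 did not pass the test (limma, adjusted p = 0.862), and leaving out control replicate 2 or 1 gave -0.13 or -0.74. The subunits of the complex therefore had estimates of both signs, each with an interval that included 0.

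Elac2 encodes RNase Z, which cuts at the 3′ ends of the tRNAs, as at the junctions printed above (chromosome 11, 64979038 to 65002069, plus strand). It had 245 and 212 normalized counts in knockout hearts, against 163 and 175 in control hearts. The knockout hearts were both above the control hearts, with a gap larger than the spread of either group. The mean was 228 ± 23.2 in knockout hearts and 169 ± 8.43 in control hearts (SD, n = 2 each). The log2 fold change of 0.43 ± 0.15 was the highest of the 10 genes in this fit, with an interval of 1.04 to 1.74 for the fold, but after adjustment over all genes it did not pass the test (limma, unadjusted p = 0.0303, adjusted p = 0.792).
These values rest on 297 and 277 reads in knockout hearts, against 167 and 130 in control hearts, where the counting error reached 8.77%. Leaving out 1 library at a time gave log2 fold changes of 0.32 to 0.53, and scaling every library to the same nuclear total gave 0.44. The 2 unassigned mice had 232 (mouse 585) and 201 (mouse 586), above both control hearts. By title mouse 585 is a control, and by genotype field mouse 586 is. Either label therefore places a control above both compared control hearts. The log2 fold change was 0.22 with the unassigned mice placed by title and 0.35 with them placed by genotype field. Control libraries were the shallower ones and the sum of the fibroblast markers was below control in knockout hearts, and the part of either in the Elac2 difference was not tested beyond the scaling given. Arhgap44, a gene on the opposite strand that overlaps Elac2, averaged 264 normalized counts, and the reads were counted by strand.

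Ptcd1 and Ptcd2 encode pentatricopeptide repeat proteins, a family that binds RNA. PTCD1 is known to lower leucine tRNA precursors in human cells and to be needed for 16S rRNA maturation in mice. Its gene (chromosome 5, 145147514 to 145167108, minus strand) had 197 and 168 normalized counts in knockout hearts, against 233 and 170 in control hearts. The difference between the 2 hearts of a group was 15.7% of their mean in knockout hearts and 31.2% in control hearts, and the groups overlapped. An estimate of -0.13 ± 0.20 on the log2 scale (limma, adjusted p = 0.956; fold interval 0.654 to 1.28) turned to 0.10 without control replicate 1 and was -0.35 without control replicate 2.
PTCD2 is known from mouse hearts to be needed for the processing that separates mt-Nd5 from mt-Cytb, a boundary with 579 bases between the genes and no tRNA on their strand. Ptcd2 (chromosome 13, 99319647 to 99344705, minus strand) had 311 and 313 normalized counts in knockout hearts, against 308 and 319 in control hearts. The knockout values lay between the control values, and the log2 fold change was -0.01 ± 0.12 (limma, adjusted p = 0.995; fold interval 0.812 to 1.22). The unassigned mice had 344 and 331 (mice 585 and 586), above all 4 compared hearts.

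Ratios of partner genes within a heart do not depend on how libraries are scaled, and 3 were compared. The ratio of Supv3l1 to Pnpt1 was 1.26 and 1.46 in knockout hearts, against 1.25 and 0.887 in control hearts. The groups did not overlap, although knockout replicate 1 and control replicate 1 were almost level. The difference of the log2 ratios was 0.37 (two-sided exact permutation test, p = 0.333, which no 2 against 2 hearts can go below; adjusted over the 3 ratios, p = 1). Leaving out control replicate 2 gave 0.12 and leaving out control replicate 1 gave 0.61.
The ratio of Trmt10c to Hsd17b10 was 0.303 and 0.417 in knockout hearts, against 0.387 and 0.318 in control hearts, with the control values inside the knockout range (difference of the log2 ratios 0.02, exact permutation test p = 1). Elac2 to Trmt10c, the 3′ against the 5′ enzyme of tRNA excision, was 1.25 and 0.874 in knockout hearts, against 0.791 and 0.949 in control hearts. These overlapped as well (difference 0.27, exact permutation test p = 0.667).

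**Figure D4:**
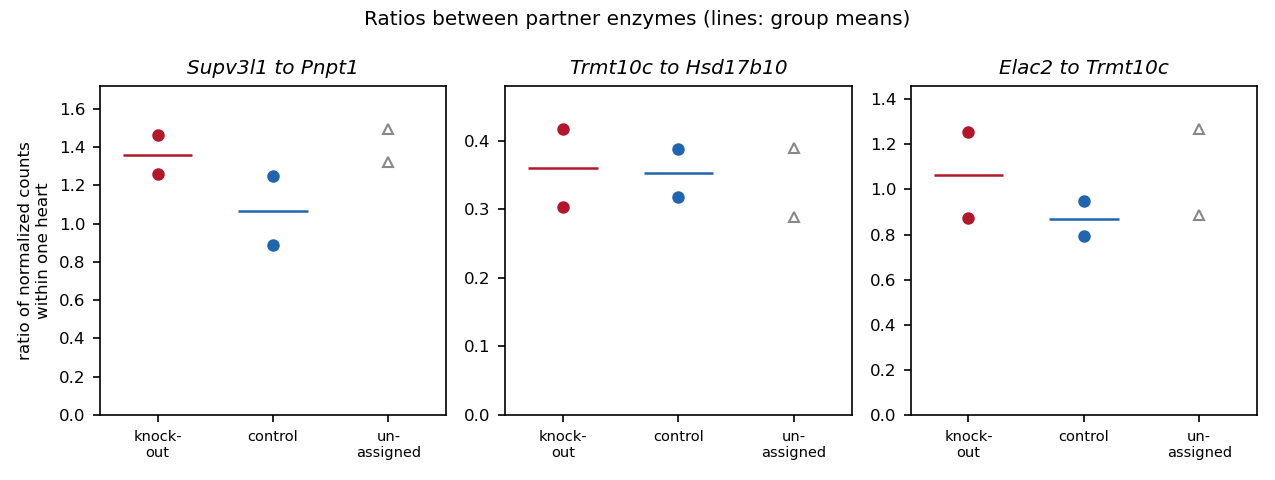
Ratio of the normalized counts of partner genes within each heart (vertical axes, each starting at 0) in knockout hearts, control hearts and unassigned mice, with a line at each group mean. The ratio of Supv3l1 to Pnpt1 is 1.26 or more in knockout hearts and 1.25 or less in control hearts, and the other ratios overlap.

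Related nuclear genes did not pass the test either. Of 32 genes for RNA modification in mitochondria, a list that includes the rRNA factors Eral1 and Ybey, 0 passed in limma. At an unadjusted p under 0.05 there were 0, edgeR and DESeq2 called 0, and the median log2 fold change was 0.01. The lowest p-values belonged to Mrm3, a methyltransferase of the 16S rRNA, with a log2 fold change of 0.34, and to Trmt1, a tRNA methyltransferase, with 0.62 (limma, adjusted p = 0.806 and 0.809). For Trmt1 the value was 0.18 without control replicate 2, the library with 109 normalized counts against 201 in control replicate 1, and 1.06 without control replicate 1.
Of 16 genes listed as other factors of RNA ends and decay, 0 passed (0 at an unadjusted p under 0.05, 0 in edgeR and DESeq2). The list also holds Mgme1, which the study names among proteins of mitochondrial DNA replication. Positive values were seen in 12 of the 16, beside 50.5% of all genes tested, and the median was 0.12. Here the lowest p-values were those of Endog, a mitochondrial nuclease (log2 fold change 0.31), and Fastkd3, a member of the FASTK family of RNA-binding proteins (log2 fold change 0.54; limma, adjusted p = 0.806 and 0.815).
Of 13 factors of mitochondrial transcription and mRNA stability, 12 were tested and 0 passed, whichever of limma, DESeq2 and edgeR was used. A single gene had an unadjusted p under 0.05 in limma, 1 of 12 beside 6.11% of all genes tested, and this was Tfam, which packages mitochondrial DNA and starts its transcription, with 394 and 353 normalized counts in knockout hearts, against 237 and 303 in control hearts (log2 fold change 0.47; limma, adjusted p = 0.773). Lrpprc, a stabilizer of mitochondrial mRNAs, had 2492 and 2540 normalized counts in knockout hearts, against 2194 and 2271 in control hearts (log2 fold change 0.17; limma, adjusted p = 0.815).

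Fold changes were larger among the RNAs on which the enzymes act. Of 13 mitochondrial mRNA and rRNA features, 6 fell in knockout hearts and 0 rose (limma, where 0.0413% of all genes were called lower), and the median log2 fold change was -1.11. mt-Cytb fell to 14504 and 10950 normalized counts in knockout hearts, against 173453 and 221488 in control hearts (log2 fold change -3.96; limma, adjusted p = 0.00148). mt-Nd5, on the other side of the PTCD2-dependent boundary, fell to 14459 and 11664, against 108876 and 128242 in control hearts (log2 fold change -3.19; limma, adjusted p = 0.00148).
The mRNAs freed at the printed junctions did not pass the test. mt-Nd6 had 9454 and 7788 normalized counts in knockout hearts, against 4178 and 6185 in control hearts, without overlap (log2 fold change 0.76; limma, adjusted p = 0.647). For mt-Nd1 the values were 170644 and 154840 in knockout hearts, against 178893 and 199761 in control hearts, also without overlap (log2 fold change -0.22; limma, adjusted p = 0.815). Of the 13 features, 12 were lower without overlap and mt-Nd6 was higher.
Of the 5 mRNAs with a tRNA at both ends, mt-Nd3 fell with a log2 fold change of -1.89 and the combined feature mt-Nd4l_4 fell with -2.63 (limma, adjusted p = 0.00148 and 0.00410). The estimates of mt-Nd1 (-0.22), mt-Nd2 (-1.11) and mt-Co2 (-1.08) did not pass (limma, adjusted p = 0.815, 0.0699 and 0.0825), and differences among these mRNAs were not tested. These calls depended on the variance model, since limma without a mean-variance trend called 0 of the 13, whereas edgeR called 6 and DESeq2 called 9. With the unassigned mice placed by title limma called 0, and with them placed by genotype field it called 9.

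**Figure D5:**
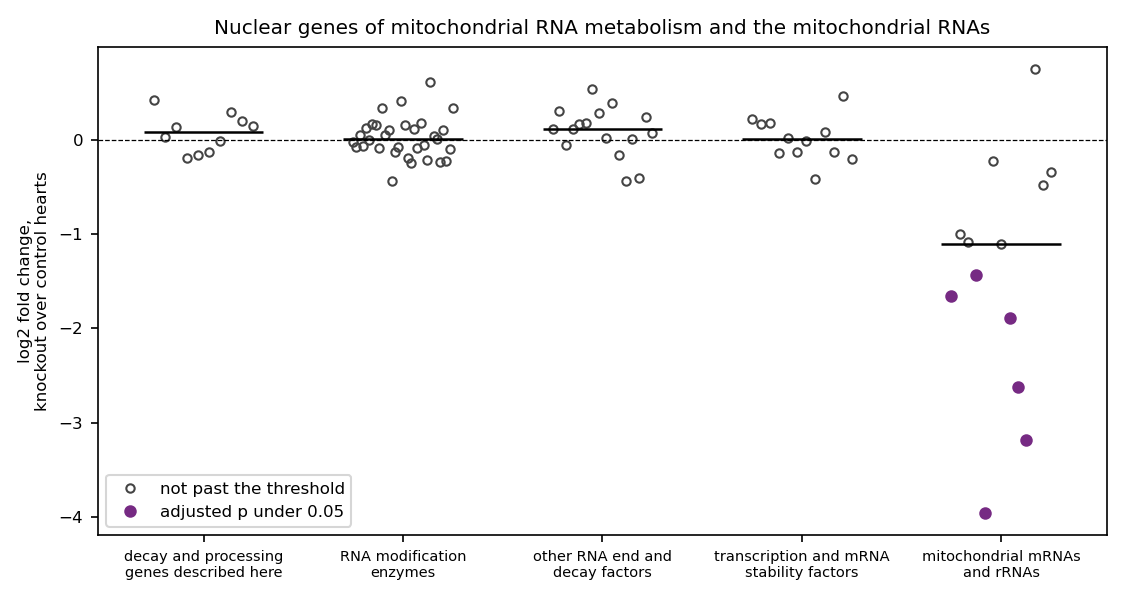
Log2 fold change of knockout over control hearts (vertical axis) of every tested gene in 5 lists, with a line at each list's median; filled points passed an adjusted p under 0.05 in limma. The 10 decay and processing genes lie between -0.19 and 0.43, and the mitochondrial mRNAs and rRNAs between -3.96 and 0.76.

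The 10 genes were also compared heart by heart. Knockout replicates 1 and 2 had 7 and 6 of the 10 genes above the gene's own mean over the 4 hearts, and control replicates 1 and 2 had 3 and 4. No share over all genes was computed for these counts. Since each gene was centred on its own mean, higher counts in one group go with lower counts in the other. The counts are thus no result separate from the signs of the fold changes. The median deviation was 0.03 and 0.01 on the log2 scale in knockout hearts, against -0.04 and -0.01 in control hearts, while single genes lay up to 0.32 above their mean in knockout hearts and up to 0.29 above it in control hearts.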

How the data were processed

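Heart RNA was sequenced as TruSeq libraries. The authors aligned reads with STAR 2.7.3a, quantified them by strand with Salmon 1.1.0 against GENCODE 24 with their own mitochondrial annotation (GRCm38.p6), and deposited normalized counts (a signal, estimated counts over DESeq2 1.26.0 size factors). All values (100%) were whole multiples, within 0.001, of 1 read, so reads were recovered. A table of the authors' own fold changes and p-values was not used. Mice 585 and 586 each combined 2 technical runs. Genes with at least 10 normalized counts in at least 2 of 4 libraries (14522) were tested as log2(normalized count + 1) with limma 3.58.1 (mean-variance trend, two-sided, Benjamini-Hochberg, threshold 0.05, R 4.3.3), so folds of low genes are understated. Alternatives were edgeR 4.0.16, DESeq2 1.42.0, other pseudocounts, filters, scalings and groupings. The fits were tested on simulated data with changes larger than any estimate of the 10 genes, so smaller changes were not covered. Gene positions, lengths and sequences came from GENCODE 21. The genes and lists were chosen with earlier results of these data known. All 10 genes were described; of other lists those that passed, or the 2 with the smallest p, up to 4, were named, with Prorp, Ssbp1, mt-Nd6, mt-Nd5, mt-Cytb and mt-Nd1. With 2 mice a group, limma drew each gene's variance partly from the trend over all genes tested. Its p-values and standard errors therefore do not measure that gene's spread between animals alone, and counting errors cover counting only.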

Additional observations from a re-analysis of the deposited data

Results flagged for a closer look

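Signal well above the control hearts was seen in the unassigned mice, whose libraries entered no main comparison. Fastkd3, a nuclear gene for a mitochondrial RNA-binding protein, had 90.8 normalized counts in unassigned mouse 586, against 55.7 and 44.5 in the control hearts. The knockout hearts had 62.6 and 84.9 for Fastkd3. mt-Nd6 had 9550 normalized counts in unassigned mouse 585, against 4178 and 6185 in the control hearts. The knockout hearts had 9454 and 7788 for mt-Nd6, so mouse 585 was near knockout replicate 1. None of the 10 decay and processing genes exceeded 1.5 times its higher control value in these mice.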

How the results depend on the processing

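Over 17 alternatives each, none of the 10 genes passed the adjusted threshold (lowest adjusted p 0.505, limma), and the 1 gene at an unadjusted p under 0.05 in limma was Elac2. Elac2 stayed under it in 13 of 17 alternatives, but not in DESeq2, by title, without control replicate 1 or without knockout replicate 1, and Rexo2 came under it by genotype field and without control replicate 2. Of the resulting 170 values, 164 kept their sign and 6 turned: Grsf1 was -0.0071 without control replicate 1 (0.0801 without control replicate 2), Ptcd1 was 0.0519 with all 6 mice placed by genotype field and 0.10 without control replicate 1 (-0.352 without control replicate 2), and Ptcd2 was 0.0059 with equal nuclear totals, 0.0127 by genotype field and 0.0179 without control replicate 2 (-0.0345 without control replicate 1). The number of the 10 genes whose groups did not overlap was 1 with 6 mice by title and 2 by genotype field. No share over all genes was computed for 6 mice, where groups separate less often by their size alone. These counts therefore cannot be set against that of the main comparison. The median log2 fold change of the 10 genes was 0.0268 by title, 0.0488 by genotype field, and 0.0173 to 0.0880 with 1 library left out. The log2 ratio of Trmt10c to Hsd17b10 was -0.13 by genotype field and -0.21 to 0.25 with 1 library left out (-0.21 without knockout replicate 2, -0.12 without control replicate 2). The ratio of Supv3l1 to Pnpt1 gave 0.12 to 0.61 and that of Elac2 to Trmt10c 0.01 to 0.53. By title mt-Nd1 was 0.0065 and Ssbp1 0.0038. The count of mitochondrial mRNAs and rRNAs called was 0 in limma without a trend and by title, and 4 to 7 with 1 library left out. Placement by title made mouse 585 a control and mouse 586 a knockout, with 9788 and 225993 normalized counts of mt-Cytb. The compared knockout hearts had 14504 and 10950, and the control hearts had 173453 and 221488. The cause of the shifts in this section was not tested.

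With the replicate number as a block, 0 of the 10 genes and 7 of the 13 mitochondrial mRNAs and rRNAs were called, and the median of the 10 genes was 0.09. The deviations of same-numbered libraries correlated at 0.31 over genes, but with 2 pairs the numbers only name the samples. A lone sample in a fit without its partner was assumed to vary like the other group. There were 126 to 449 reads per library for 8 of the 10 genes, and 2 hearts a group. Differences inside the intervals given could therefore not be told from no difference, except for Elac2. The interval of Elac2 left out no difference, but only before adjustment over all genes.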
